A study of Mus musculus with 2 samples.

Results

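Nucleoporins are the proteins of the nuclear pore complex, the channel through which RNA and protein pass between nucleus and cytoplasm. The genes described here were those with a protein-coding transcript whose symbol was Nup or Thoc followed by a number, together with Nxf1, Nxt1, Alyref, Tpr, Rae1, Sec13, Aaas, Pom121 and Ranbp2. This rule, which used gene names and transcript types and no measured value, found 34 of 21901 genes with a protein-coding transcript. All 34 are named below, and each was kept whatever its level.

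The series held 2 libraries of 1 group, both of total RNA depleted of ribosomal RNA from the nucleoplasmic fraction, the soluble part of the nucleus, of macrophages grown from the bone marrow of C57BL/6J mice. The cells had received lipid A, the TLR4-activating moiety of bacterial lipopolysaccharide, at 100 ng/ml for 90 min. Library preparation started from 1 µg of RNA in replicate 1 and from 500 ng in replicate 2, and both replicates carry 1 donor entry in the labels, so part of their spread can be technical. With no unstimulated library and no cytoplasmic or chromatin library used here, the values describe levels in the nucleoplasm of stimulated cells and give neither induction nor export.

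Replicate 1 held 22669533 estimated counts and replicate 2 held 14939143, of which the 34 genes took 0.231% and 0.229%. Levels are given as TPM, an abundance scaled to transcript length and to the library's total. A coding gene near 1 TPM had a median of 71 counts in replicate 1 and 31.2 in replicate 2. All 8 macrophage markers examined reached 10 TPM in both libraries, with Lyz2 highest at 916 and 1103 TPM. Of the 19 markers of T cells, B cells, neutrophils, dendritic cells, stromal or endothelial cells and erythroid cells, only Zbtb46 reached 1 TPM in both, at 1.05 and 2.12 TPM, and 7 were at 0 in both. These values are from the first of the authors' 2 quantifications. In the second, the endothelial marker Pecam1 also reached 1 TPM in both, at 3.53 and 13.4 TPM. Cd3e and Cd3g, among the 7 at 0, were above 0 in it.

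As background, the pore is built from stacked rings: the Y complex forms the outer rings, the inner ring scaffolds the channel, filaments reach into the cytoplasm, and a basket faces the nucleoplasm. An mRNA is packaged during transcription by the THO complex and the adaptor Alyref, together called TREX, and is then handed to the export receptor, a dimer of Nxf1 and Nxt1 that passes through the channel. The Nxf1 gene is known for an mRNA that keeps an intron: that intron carries a constitutive transport element to which NXF1 protein itself binds, so that the unspliced form can leave the nucleus and be translated into a shorter protein.

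The intron edges that separate the forms of Nxf1 are printed first, because the transcript with the highest mean TPM of the whole gene set was one that holds this intron. Sequences are from the GENCODE M21 transcripts on mm10, 5′ to 3′ on the gene's strand, with 15 bases on each side of an edge, exon bases in lower case and intron bases in capitals. The intron runs over chr19:8765032-8766796 on the plus strand, is 1765 bases long with a GC content of 54.7%, and is intron 10 of Nxf1-201, a protein-coding transcript of 21 exons.
Nxf1-209, start of the held intron: gtccagctatatcagGTCAGTTGTAGCCTC
Nxf1-209, end of the held intron: TCCCGTTCTTGACAGcgccattcgcgaacg
Nxf1-201, the same site spliced: gtccagctatatcagcgccattcgcgaacg
The transcript Nxf1-209 is 4042 bases long and, although annotated as protein-coding, reads through the intron within 1 exon. Its annotated reading frame of 418 codons ends at position 8765272, which is 241 bases into the intron, whereas Nxf1-201 is 2326 bases long and has a frame of 618 codons.

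Nxf1, on chromosome 19 from 8757073 to 8770922, was the most abundant of the 34 genes, and most of its reads were assigned to the form with the intron. The gene had 174 TPM in replicate 1 and 221 TPM in replicate 2, from 9500 and 7086 counts. The deposited intervals for these levels were 161 to 178 TPM and 196 to 220 TPM. Its mean of 197 ± 33.1 TPM (SD, n = 2) was 25.5 times the median of expressed coding genes and stood at percentile 98.3 of them. Nxf1 alone made up 32.6% and 32.2% of the summed TPM of the 34 genes.

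The transcript with the intron, Nxf1-209, had 55.3 TPM in replicate 1 and 95.0 TPM in replicate 2, with deposited intervals of 51.7 to 55.2 and 86.3 to 91.3 TPM. The spliced form Nxf1-201 had 16.0 and 6.78 TPM, with intervals of 13.0 to 18.1 and 4.37 to 8.47 TPM. These intervals belong to a posterior mean, so the deposited TPM can lie just outside them. The form with the intron was the higher of the pair in each library, by 3.45 times in replicate 1 and 14.0 times in replicate 2. Of the TPM of both forms together, 77.5% and 93.3% was on Nxf1-209, a mean of 85.4% ± 11.2 (SD, n = 2).

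The libraries differed in the spliced form more than in the gene. Nxf1-209 had 7362 and 6281 counts, or 325 and 420 CPM (counts scaled to the library total), while Nxf1-201 had 1174 and 248 counts, or 51.8 and 16.6 CPM. By counts the form with the intron took 86.2% and 96.2% of the pair, and in the second quantification, which the authors made directly from the reads, it took 64.7% and 88.0% of TPM. The direction was therefore the same in both libraries and both quantifications, while the size of the share was not settled by 2 libraries. Reads of any Nxf1 RNA that was not yet spliced at this site would also be assigned to Nxf1-209, and a retained intron and an unfinished splice cannot be told apart in these tables.

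Part of the gene's TPM came from very short annotated transcripts. The 6 Nxf1 transcripts under 600 bases held 94.3 and 116 TPM but only 8.03% and 7.43% of the gene's counts. Nxf1-203, a processed transcript of 431 bases at the gene's 3′ end, was listed at 64.3 and 48.1 TPM, and Nxf1-208, of 505 bases, at 28.8 and 66.2 TPM. The other 4 transcripts, of 600 bases or more, summed to 79.5 and 104 TPM, which was still above the next gene, Ranbp2. In the second quantification Nxf1 was lower, at 82.8 and 106 TPM, and again the highest of the 34. There, however, its transcripts of 600 bases or more summed to only 52.1 and 62.1 TPM. That sum was below the whole-gene level of Tpr in replicate 1, 64.2 TPM, and of Thoc2 in replicate 2, 67.4 TPM. The 2 sides of this comparison are unlike, because Tpr and Thoc2 kept their own short transcripts. Tpr-211, of 362 bases, had 11.3 TPM in replicate 1, and Thoc2-209, of 462 bases, had 19.4 TPM in replicate 2. The comparison therefore does not show whether the top rank of Nxf1 in the second quantification depended on short transcripts.

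**Figure D1:**
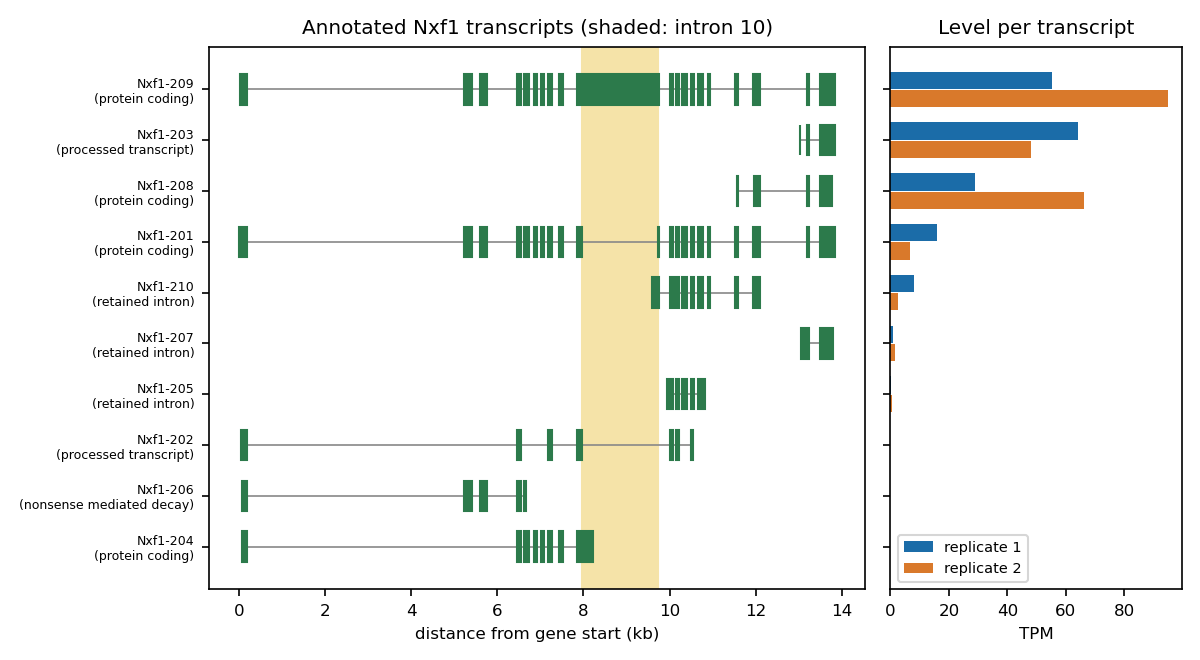
Annotated Nxf1 transcripts drawn by distance from the gene start in kb (left, exons as green boxes, intron 10 of Nxf1-201 shaded) and the TPM of each in replicate 1 (blue bars) and replicate 2 (orange bars). Nxf1-209, whose long exon fills the shaded intron, was listed at 55.3 and 95.0 TPM, against 16.0 and 6.78 TPM for the spliced Nxf1-201. The short Nxf1-203 and Nxf1-208 at the 3′ end carried much of the remaining TPM.

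The partner of Nxf1 in the export receptor was near the bottom of the set. Nxt1, whose product binds NXF1 and stabilises it, had 0.74 and 1.07 TPM, from 20 and 15 counts. The deposited intervals were 0.466 to 1.12 and 0.625 to 1.69 TPM. The level of Nxf1 was 235 and 206 times that of Nxt1, and 117 and 108 times in the second quantification. The gap was thus present in both libraries, with a size that rests on few Nxt1 counts. That size also rests on the Nxf1 transcripts under 600 bases, which held 94.3 and 116 TPM in the first quantification. In the second, the transcripts of 600 bases or more held 52.1 and 62.1 of the 82.8 and 106 TPM of Nxf1. The related Nxt2 was listed at 0.33 and 0.51 TPM, and the related receptors Nxf2, Nxf3 and Nxf7 were listed at 0 in both libraries.

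Over the whole set, 29 of 34 genes reached 1 TPM in both libraries, where 39.1% of the 21901 coding genes were. The level of 10 TPM was reached in both by 11 of 34, where 14.7% of the 21901 coding genes were; of the 29 genes that had reached 1 TPM in both, 11 is to be read against 37.7% of 8565 coding genes at that level. Among these expressed genes the set was not high: 12 were above the coding median of their library in both libraries, where 47% of the 8565 were. The median over the 34 genes was 5.37 TPM, and over the 29 it was 7.09 TPM, against 7.75 TPM for the expressed coding genes. A few genes carried the set, since Nxf1, Ranbp2, Tpr and Thoc2 together held 61.0% and 59.8% of its summed TPM. The ranking was shared by the libraries, with a Spearman correlation of 0.976 over the 34 genes, a description over genes measured in the same 2 libraries.

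**Figure D2:**
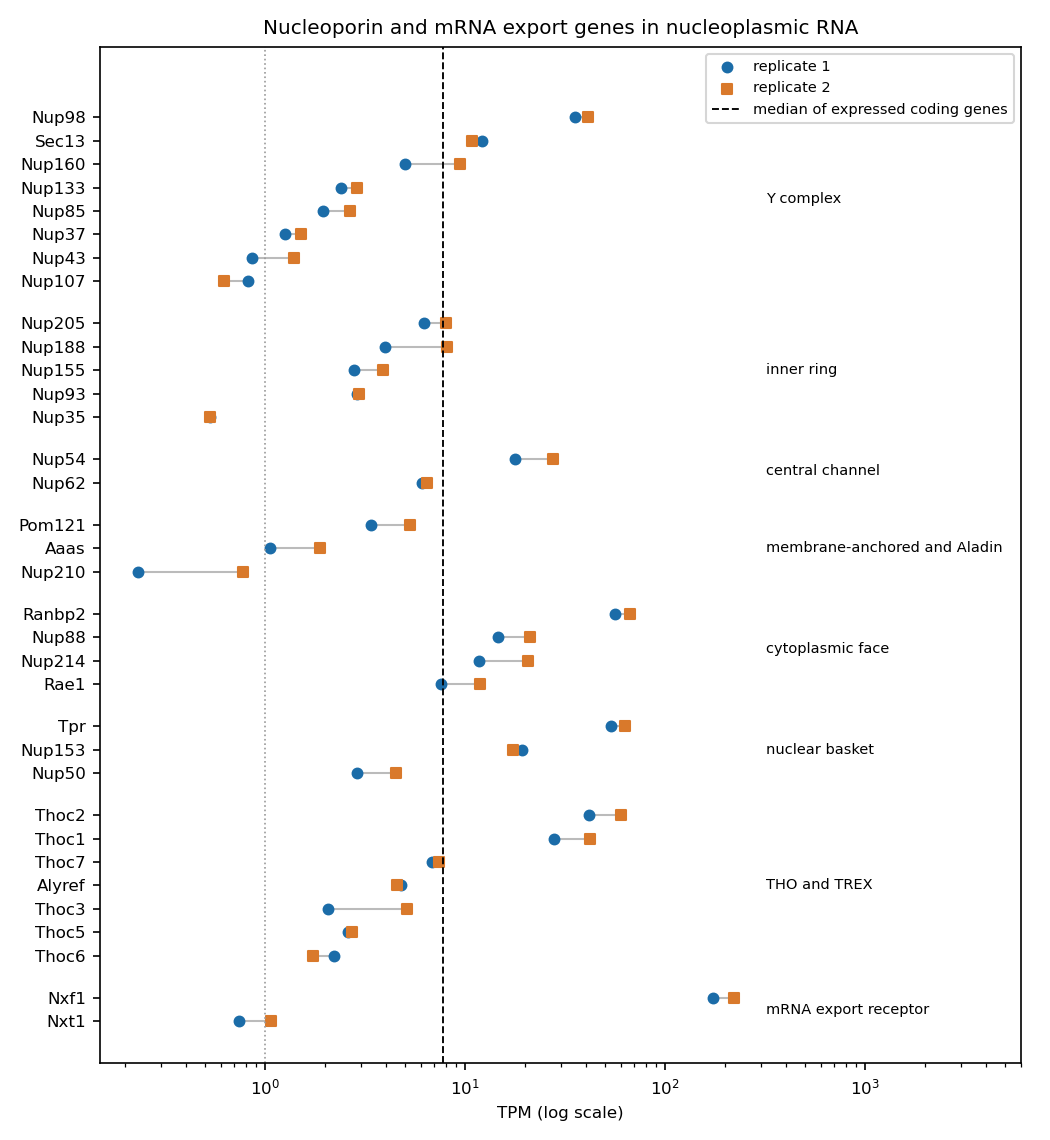
TPM of the 34 genes on a log axis, grouped by role from the outer ring to the export receptor, with replicate 1 as blue circles and replicate 2 as orange squares. The dashed line is the median of expressed coding genes, 7.75 TPM, and the dotted line marks 1 TPM. Nxf1 stands apart at 174 and 221 TPM, while its partner Nxt1 lies at 0.74 and 1.07 TPM.

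The THO and TREX genes, which load onto nascent mRNA, were unequal. Thoc2, the large scaffold of THO (chromosome X, 41794991 to 41920674), had 41.6 and 60.1 TPM, and Thoc1, another core subunit (chromosome 18, 9957906 to 9995489), had 27.9 and 42.0 TPM. The other 5 were lower in both libraries: Thoc7 had 6.83 and 7.42 TPM and Alyref, the adaptor that recruits Nxf1, had 4.78 and 4.55 TPM. Thoc3 had 2.05 and 5.12 TPM, Thoc5 had 2.60 and 2.72 TPM, and Thoc6 had 2.20 and 1.73 TPM. Thoc2 was 16.0 and 22.1 times Thoc5 and 1.49 and 1.43 times Thoc1. All 7 reached 1 TPM in both libraries and 2 reached 10 TPM. Thoc1 shares 24.3% of its exon bases with Usp14 on the opposite strand, which had 15.03 and 27.5 TPM. Whether the counting used strand is not given in the sources used here, so reads of such pairs may be exchanged.

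At the nuclear basket, Tpr, the coiled-coil protein that forms the basket's filaments (chromosome 1, 150392838 to 150449935), had 53.5 and 63.1 TPM, or 58.3 ± 6.73 TPM (SD, n = 2). Nup153, which anchors the basket, had 19.3 and 17.3 TPM. Nup50, which binds Nup153 and importin alpha, had 2.88 and 4.51 TPM. The 3 basket genes kept this order in both libraries with no overlap between them.

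On the cytoplasmic face, Ranbp2, the giant filament protein that binds Ran (chromosome 10, 58446920 to 58494356), had 55.9 and 66.5 TPM from 14251 and 7750 counts, the most counts of any gene in the set. Nup88 had 14.5 and 21.01 TPM, and Nup214, its partner in a complex at the cytoplasmic exit, had 11.8 and 20.6 TPM, so that these 2 overlapped. Rae1, an mRNA export factor that binds Nup98, had 7.57 and 11.8 TPM. All 4 reached 1 TPM in both libraries and 3 reached 10 TPM.

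The Y complex spanned a wide range. Nup98, whose precursor protein is cleaved into the mobile nucleoporin Nup98 and the Y-complex subunit Nup96 (chromosome 7, 102119398 to 102210176), had 35.3 and 41.0 TPM. Sec13, a subunit that the pore shares with the COPII vesicle coat, had 12.1 and 10.8 TPM, and Nup160 had 5.02 and 9.45 TPM. Nup133 and Nup85, core scaffold subunits, averaged 2.63 and 2.30 TPM, and Nup37, a peripheral subunit, averaged 1.39 TPM. At the low end, Nup43 had 0.86 and 1.40 TPM and Nup107, a core subunit that binds Nup133, had 0.82 and 0.62 TPM. Subunits that sit in 1 complex thus differed in nucleoplasmic RNA by far more than the libraries differed.

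The transcripts of Nup98 divided between the long and the short reading frame. Nup98-203, with a frame of 1816 codons that covers Nup98 and Nup96, had 6.00 and 7.39 TPM from 1354 and 827 counts, the most counts of any Nup98 transcript. Nup98-204, with a frame of 984 codons, had 5.07 and 5.34 TPM. Higher than both by TPM were Nup98-202, annotated as retained intron and 3198 bases long, at 12.1 and 14.0 TPM, and Nup98-207, also annotated so, at 7.15 and 7.52 TPM.

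No inner ring gene reached 10 TPM in both libraries. Nup205 had 6.20 and 7.98 TPM and Nup188, the other large scaffold of this ring, had 3.99 and 8.14 TPM. Nup155 had 2.78 and 3.88 TPM, Nup93, which links the scaffold to the channel, had 2.88 and 2.96 TPM, and Nup35 had 0.53 TPM in each library. In the central channel, Nup54 had 17.7 and 27.4 TPM and Nup62 had 6.06 and 6.46 TPM; both carry phenylalanine-glycine repeats that form the permeability barrier. Among the membrane-associated genes, Pom121 had 3.39 and 5.32 TPM, Aaas, which encodes Aladin, had 1.06 and 1.88 TPM, and Nup210 had 0.23 and 0.77 TPM.

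The 5 genes under 1 TPM in either library were thus Nup43, Nxt1, Nup107, Nup35 and Nup210, and Nup107, Nup35 and Nup210 were under it in both. None of them was at 0, with between 20 and 69 counts each in replicate 1 and between 15 and 32 in replicate 2. For Nup210, listed at 0.23 TPM from 48 counts in replicate 1, the deposited interval was 0.525 to 1.78 TPM, so the position of such genes relative to 1 TPM is uncertain.

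The libraries were compared by the log2 ratio of TPM + 0.1, replicate 1 over replicate 2, less the median of −0.39 over 9010 coding genes that averaged at least 1 TPM. Of the 30 members with such a mean, 3 were beyond 1.5-fold, where 16.7% of the 9010 coding genes were. Thoc6 was higher in replicate 1, by 0.72 (10.6% of coding genes were beyond 1.5-fold in this direction). Thoc3 at −0.89 and Nup188 at −0.62 were lower in it (6.09%), and Sec13 at 0.55 lay just inside the limit. The median of the 30 was −0.01 with an SD of 0.37, and 15 were above 0 and 15 below.

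With counts scaled by the trimmed mean of M values (TMM) in place of TPM, Thoc6 was at 0.86, Thoc3 at −0.46, Nup188 at −0.45 and Nup43 at −0.69, so 2 genes were beyond the limit. In the second quantification Thoc6 was at 0.47, Thoc3 at −0.49 and Nup188 at −0.18, and Alyref, at 0.98, was the 1 gene beyond it. The genes beyond the limit by 1 alternative only did not keep their sign: Alyref was at 0.46 by TPM and −0.37 with TMM, and Nup43 was at −0.26 by TPM and 0.31 in the second quantification. None of these 5 genes was beyond 1.5-fold by all of the 3 measures, and no test was possible between single libraries.

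**Figure D3:**
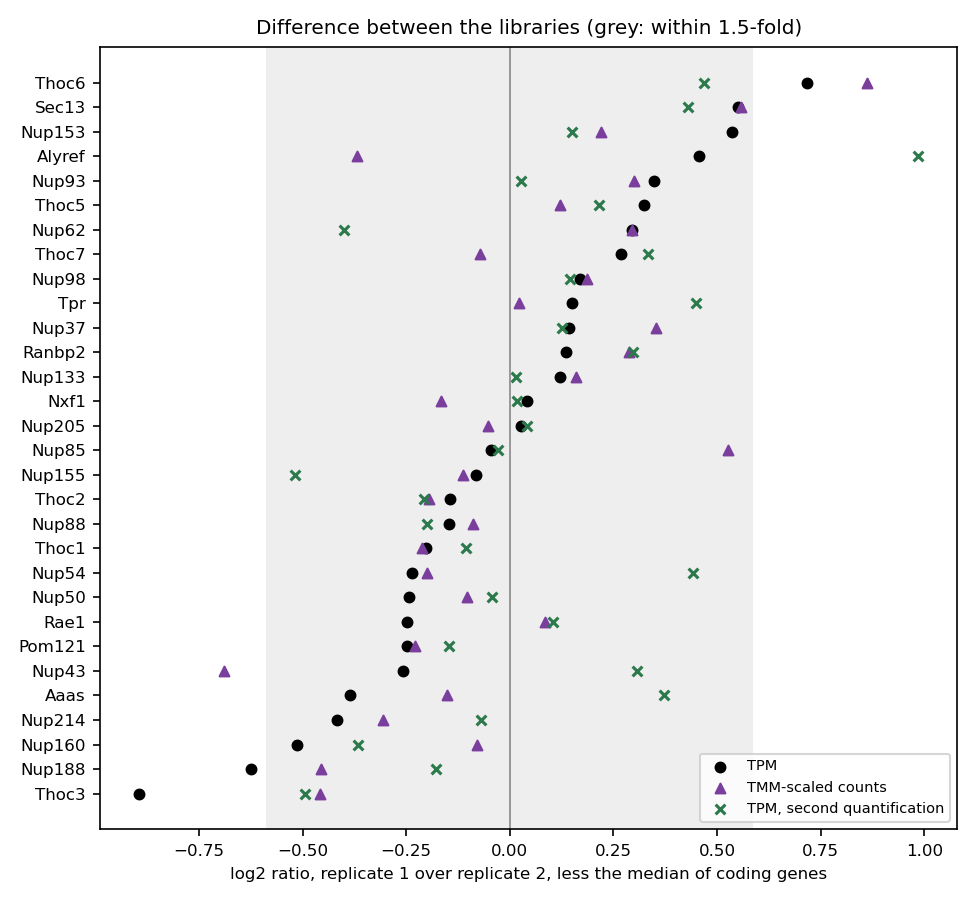
Log2 ratio of replicate 1 over replicate 2 for the 30 members averaging at least 1 TPM, less the median of coding genes, from TPM (black circles), TMM-scaled counts (purple triangles) and the second quantification (green crosses). The grey band is 1.5-fold. Thoc6 and Thoc3 lie outside it by TPM at 0.72 and −0.89, and the 3 measures often disagree by more than the distance to the band.

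Because the RNA was nuclear, the share of each gene's TPM on transcripts annotated as retained intron was examined in the 23 members that had such a transcript and 1 TPM or more in both libraries. The median share was 39.1%, against 34.6% over 5586 coding genes chosen in the same way. In 4 of the 23 it was 50% or more in both libraries, where 21.5% of the 5586 were, so the set as a whole was near the background. Individual genes ranged widely.

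Thoc1 had the highest share, 90.4% and 91.2%, spread over 11 annotated retained-intron transcripts; its main coding transcript Thoc1-201 had 2.46 and 3.72 TPM. Nup88 had 69.8% and 72.4%, also from 11 such transcripts, and Nup98 had 54.4% and 52.4%. Tpr had 51.5% and 38.9%, on either side of 50%, but 74.7% and 67.8% in the second quantification. Sec13 had 44.5% and 39.6%. The fourth gene at 50% or more in both was Nup37, at 67.5% and 74.7% but from only 43 and 22 counts. At the low end among genes of 10 TPM or more, Nup153 had 37.0% and 23.0% and Nup214 had 21.4% and 36.2%. The lowest was Nxf1, with 5.36% and 2.02%, in a count that leaves out its form with intron 10, annotated as protein-coding; in the second quantification it had 17.1% and 13.5%.

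The annotated type is not the same as holding a complete intron. Of the 98 retained-intron transcripts of the members, 66 hold no whole intron of a protein-coding transcript, Nup98-202 among them, while Nxf1-209, annotated as protein-coding, holds one. Transcripts holding a whole intron of a protein-coding transcript inside 1 exon, a definition chosen after the values were seen, took a median of 24.1% of TPM in 16 members, against 26.9% over 3583 coding genes. By counts the medians were 10.9% in the members and 28.0% over the coding genes. Thoc1 and Thoc6 had 50% or more of TPM on such transcripts in both libraries, 2 of 16, where 17.8% of the 3583 did. For Thoc6 the share rests on 95.5 and 34 counts. It includes Thoc6-201, annotated as protein-coding, with 23.7% of TPM in replicate 1 and 4.62% in replicate 2. For Nxf1 the share on transcripts holding a whole intron was 36.5% and 44.2% of the gene's TPM but 79.6% and 89.1% of its counts.

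**Figure D4:**
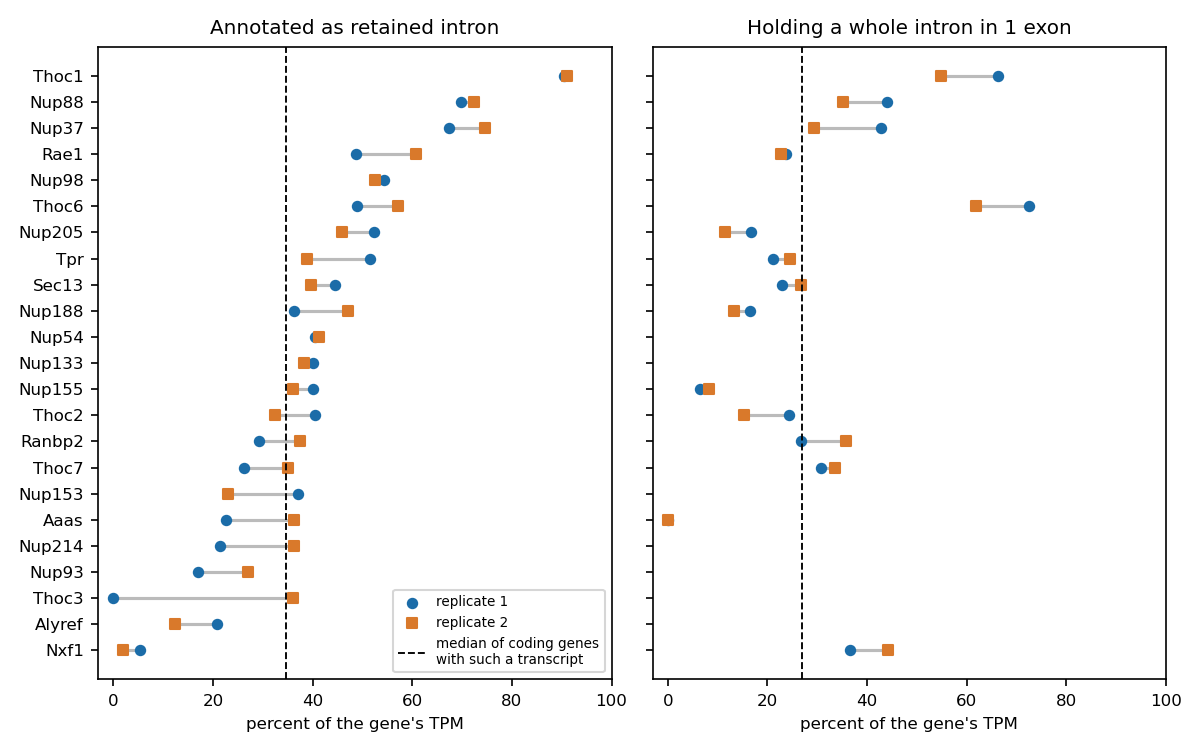
Percent of each gene's TPM on transcripts annotated as retained intron (left) and on transcripts that hold a whole intron inside 1 exon (right, genes with such a transcript), in replicate 1 (blue circles) and replicate 2 (orange squares), for the 23 members with a retained-intron transcript and 1 TPM in both libraries. The dashed lines are the coding-gene medians, 34.6% and 26.9%. Nxf1 has the lowest mean on the left, at 5.36% and 2.02% (Thoc3 was at 0% in replicate 1), and is among the higher genes on the right at 36.5% and 44.2%.

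Held introns in the other 3 of the 4 most abundant genes are shown by their edges, for comparison with the Nxf1 intron; all 4 begin with GT and end with AG. Coordinates are those of the introns, on mm10. In Ranbp2-202 it is intron 5 of Ranbp2-201, chr10:58455450-58455808, plus strand, 359 bases. In Tpr-214 it is intron 49 of Tpr-201, chr1:150447631-150449142, plus strand, 1512 bases, and in Thoc2-211 it is intron 28 of Thoc2-201, chrX:41822872-41823361, minus strand, 490 bases.
Ranbp2-202, intron start: gtacagactcttaagGTAGGTGAAACTTAT
Ranbp2-202, intron end: TTTCTTAAAAATTAGgaatatctggagtct
Tpr-214, intron start: cgagctcctccgtagGTAAGTACTGTCCCA
Tpr-214, intron end: TGATGCTTTCTGTAGataccagtagtagtc
Thoc2-211, intron start: tgcattggctatgggGTAACACAATTATAT
Thoc2-211, intron end: TTGTGCGACTTTCAGctactcggggcagtt
Their GC contents were 30.1% in Ranbp2, 39.9% in Tpr and 30.6% in Thoc2, all below that of the Nxf1 intron. Ranbp2-202 had 14.9 and 23.9 TPM, against 39.5 and 41.5 TPM for the full-length coding Ranbp2-201. Tpr-214 had 5.59 and 7.61 TPM, against 18.8 and 27.1 TPM for Tpr-201. Thoc2-211 had 8.71 and 7.26 TPM, against 14.5 and 24.3 TPM for Thoc2-201. In the first quantification the coding transcript named here was therefore the higher in both libraries for these 3 genes, whereas in Nxf1 the form with the intron was. In the second quantification this held for Ranbp2 and Thoc2. For Tpr, Tpr-214 had 3.23 and 4.14 TPM there, against 3.41 and 2.66 TPM for Tpr-201. A second long coding transcript, Tpr-203 of 7430 bases and 2431 codons, had 12.7 and 16.9 TPM in the second quantification, above Tpr-214. In the first quantification Tpr-203 had 4.34 and 3.66 TPM, below Tpr-214. Outside these 4 genes, Thoc1 showed the same order as Nxf1, and its intron edges are not printed here. Thoc1-211, which holds 1 whole intron, had 7.40 and 9.16 TPM in the first quantification, against 2.46 and 3.72 TPM for the coding Thoc1-201. In the second quantification they had 4.51 and 3.94 TPM, against 1.13 and 2.00 TPM.

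Transcripts annotated as protein-coding took under 50% of TPM in both libraries in 10 of 29 members, where 24.9% of 8565 expressed coding genes were so. The median share was 52.5% in the members, against 67.1% over those genes. By counts, 23 of the 29 had a protein-coding transcript as their most abundant in both libraries, where 79.9% of the 8565 did. In 4 of the 29, namely Nup37, Nup88, Thoc1 and Thoc7, it was a retained-intron transcript in both libraries, where 10.5% of the 8565 had one. Both shares were near those of coding genes in general. Pom121, Nup50, Nup62 and Nxt1 had all of their TPM on protein-coding transcripts, which are the only kind annotated for them in these tables.

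The second quantification gave levels within 1.5-fold of the first for 24 of the 30 members averaging at least 1 TPM, where 69.7% of 9010 coding genes were so. Nup62 was 2.31 times higher in it, at 10.7 and 18.3 TPM, mostly on Nup62-202, a transcript of 334 bases at 7.28 and 14.7 TPM that the first quantification lists at 0. Nup62 also shares 97 exon bases with Il4i1 on the same strand, which had 36.5 and 23.2 TPM. Nup54 was 2.12 times higher, at 49.0 and 46.6 TPM, with 15.9 and 10.3 TPM on Nup54-204, of 397 bases. Nup93 was 1.77 times and Nup85 1.62 times higher, and Nxf1 was 2.09 times lower. Of the 29 genes at 1 TPM in both libraries, 21 had the same most abundant transcript by TPM in both libraries in the first quantification, where 77.1% of the 8565 coding genes did. Across both libraries and both quantifications it was the same for 9 of the 29, where 42.4% of the 8565 did, so statements on single transcripts are less certain than those on genes.

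**Figure D5:**
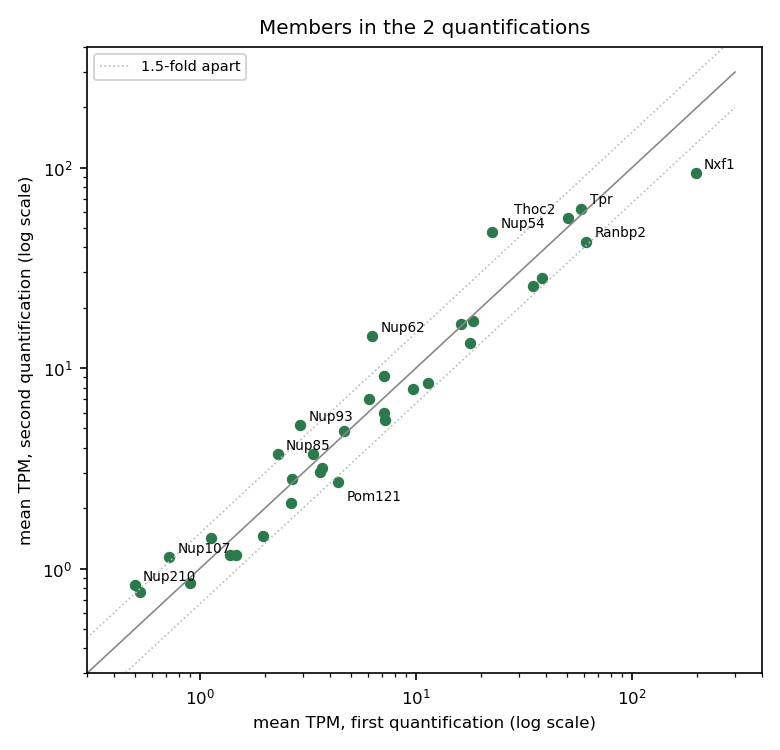
Mean TPM of the 34 genes over both libraries in the first quantification (x axis, log scale) and the second (y axis, log scale); the solid line marks equal values and the dotted lines 1.5-fold. Nup54 and Nup62 lie above the upper dotted line, at 2.12 and 2.31 times, and Nxf1 lies below the lower one.

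Genes of the same pathway outside the name rule were listed beside the set. Of 8 pore genes whose symbols do not follow the rule, 2 reached 1 TPM in both libraries: Ahctf1 (Elys), which seeds pore assembly on chromatin, had 14.3 and 21.2 TPM, and Seh1l, a Y-complex subunit, had 11.96 TPM in each. Gle1, which activates the export helicase at the cytoplasmic face, had 0.84 and 1.5 TPM, and Pom121l2 and Nup62cl were listed at 0. The channel nucleoporin Nup58 is annotated in the files as Nupl1, with no protein-coding transcript and 0 TPM. RefSeq on GRCm38.p6 places Nupl1 at chr14:60205284-60251479, where GENCODE M21 has the gene Gm49336 at chr14:60205282-60251507, and Gm49336 had 24.5 and 34.8 TPM from 2905 and 2147 counts.

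Of 24 export adaptors and helicases, 18 reached 1 TPM in both libraries and 8 reached 10 TPM. The highest were Zc3h11a, a zinc finger protein that joins TREX, with 87.1 and 118 TPM; Ddx39b, the helicase of TREX, with 77.9 and 90.4 TPM; and Srsf3, a splicing factor that also serves as an Nxf1 adaptor, with 69.7 and 76.4 TPM. In the first quantification these 3 exceeded every member of the set but Nxf1 in both libraries. In the second, Ddx39b, at 49.4 and 53.0 TPM, and Srsf3, at 48.2 and 57.0 TPM, were below Tpr, at 64.2 and 60.7 TPM. The lowest were Nxf2, Nxf3, Nxf7 and Luzp4, all listed at 0. The symbol Zc3h11a belongs to 2 genes in the annotation, of which the higher is given.

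All 29 importins, exportins and Ran cycle genes reached 1 TPM in both libraries, and 11 reached 10 TPM. Kpna3, an importin alpha, had 41.8 and 48.6 TPM, Tnpo3, which imports SR proteins, had 27.5 and 34.2 TPM, and Ipo5 had 20.4 and 30.2 TPM. The lowest were Xpo7 at 1.40 and 2.13 TPM and Ipo11 at 1.76 and 1.92 TPM. The medians were 8.43 TPM for these 29 and 4.52 TPM for the 24 adaptors and helicases, beside 5.37 TPM for the 34 genes of the set.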

How the data were processed

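The authors deposited, for each library, a gene and a transcript table from a first quantification and a transcript table from a second one. Per the file headers and the labels, the first used a transcriptome alignment to mm10 with GENCODE M21 and the second was made from 10 read files; the aligner and both quantifiers: not given in the sources used here. Estimated counts, as deposited, need not be whole and are unnormalized. The deposited TPM are scaled to length and library total; the deposited FPKM served as an alternative. The deposited TPM interval bounds (unit signal) are printed for single genes and transcripts. The deposited percent per isoform was not used.

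Gene levels came from the gene tables; shares were sums over transcripts by annotated type, with gene models from the GENCODE M21 annotation. Ratios used a pseudocount of 0.1 and a minimum mean of 1 TPM. TMM scaling (edgeR 4.0.16, prior count 2) and DESeq2 1.42.0 size factors on rounded counts were alternatives. The TMM ratios were tested on simulated counts. The changed genes there differed by more than 1.5-fold and had more counts than Thoc6 or Nup43. Calls near 1.5-fold in genes of few counts were therefore not tested. Python 3.11.15, numpy 2.4.6, pandas 2.3.3, matplotlib 3.10.9 and R 4.3.3 were used. Expressed coding genes are those at 1 TPM or more in both libraries; the coding median is that of these 8565 genes. A count of 0 allows up to 3 counts, 0.132 and 0.201 CPM; this covers counting error only.

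The genes and lists were chosen with earlier results of these data known. Named with both values were the 3 highest and 2 lowest of each role, genes beyond 1.5-fold, the 5 highest and 3 lowest retained-intron shares at 10 TPM, the 5 largest disagreements between quantifications, genes under 1 TPM, and the 3 highest and 2 lowest of each partner list. With 1 group and 2 libraries comparisons are descriptive, without p-values.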

Additional observations from a re-analysis of the deposited data

How the results depend on the processing

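Thoc6, Thoc3 and Nup188, beyond 1.5-fold by TPM, kept their sign with TMM scaling and in the second quantification, while Alyref and Nup43, beyond it by 1 alternative, did not; the median log2 ratio of the set, −0.01, was −0.08 with TMM and 0.03 in the second quantification. Rescaling to protein-coding genes put 20 genes at 10 TPM in both libraries (11 as reported), and taking all coding genes above 0 TPM put 23 above the coding median (12 as reported). The set's median, over all 34 genes with no minimum, was 0.693 of the coding median, which has a minimum of 1 TPM in both libraries. With that minimum on both sides the medians were 7.09 TPM for 29 members and 7.75 TPM for the coding genes. The ratio of 0.693 was 0.775 in the second quantification and 2.15 against all coding genes above 0 TPM. It was 0.325 with a minimum of 5 TPM for the coding genes alone, and 0.687 to 0.762 when either library was left out. The count beyond 1.5-fold, 3, was 1 with a pseudocount of 1, 6 without a minimum, 1 with a minimum mean of 5 TPM and 1 in the second quantification. The median retained-intron share, 39.1%, was 44.7% in the second quantification, 41.5% at 5 TPM, and 24.1% and 10.9% for whole introns by TPM and by counts, both added after seeing the data. The count with under 50% of TPM on protein-coding transcripts, 10, was 19 in the second quantification and 13 to 17 when either library was left out, since 1 library then decides. The Nxf1 intron share, 85.4%, was 76.3% in the second quantification, 91.2% by counts and 77.5% to 93.3% by single library. The causes of these changes were not tested. No paired analysis was possible because there is 1 group. Genes at 15 to 70 counts, such as Nxt1, are limited by depth.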
